A study of Mus musculus with 4 samples.

Results

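Basement membrane genes encode the sheet of matrix on which endothelial cells sit and which encloses pericytes and smooth muscle cells in the vessel wall. The 10 genes described here were taken by name from the 32285 genes of the gene table: Col4a1, Col4a2, Lama4, Lama5, Lamb1, Lamc1, Nid1, Nid2, Hspg2 and Sparc. Each symbol was in the table once. They were followed by their unique molecular identifier counts (UMIs, 1 per captured transcript) in endothelial-like, mural-like and macrophage-like cells of each library. Macrophages are followed too because they lie against vessels or, as microglia, transcribe Sparc.

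Type IV collagen forms the network of the sheet; in most vessels it is a trimer with more chains from Col4a1 than from Col4a2. Laminins, trimers of an alpha, a beta and a gamma chain, form the layer that cells bind through integrins, and nidogens and perlecan link it to the collagen. In brain vessels the endothelium deposits the alpha chains Lama4 and Lama5, and pericytes and astrocytes add to the same sheet from the other side. Sparc is a collagen-binding matricellular protein, which acts on the assembly of the sheet and is no structural part of it.

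Droplet-based single-cell RNA sequencing was done on cortex of C57BL/6N males at 10 months of age. Strokes were made by dMCAO surgery, which closes a branch of an artery that feeds the cortex, and the lesion was taken with a margin of about 2 mm. The 4 groups were sham surgery with an isotype control antibody, stroke with the isotype antibody, stroke with anti-VCAM1, which blocks an adhesion molecule of activated endothelium, and stroke with anti-VLA4, which blocks the integrin that binds VCAM1. Every group, sham included, received antibody for 10 weeks. Each group was 1 library from pooled tissue of 4 to 5 mice. No difference below therefore has a replicate check or a p-value, each is a difference between libraries, and all intervals are 95% intervals for counting error only.

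After filtering, the libraries held 1513, 2831, 4660 and 6208 cells, always in the order sham isotype, stroke isotype, anti-VCAM1, anti-VLA4, with 9820177 to 33375144 UMIs. The sham and stroke isotype libraries shared 59 cell barcodes (3.83% of the smaller), and other pairs shared 1 to 8. Leaving out the shared barcodes changed no count of members called in the endothelium. Endothelial-like cells numbered 549, 647, 2394 and 3084, in 8 clusters. All 13 endothelial markers were present in each library at a summed 23544 to 24971 UMIs per 1000000 UMIs of the class (CPM, the unit of all levels below). Mural-like cells, with all 10 pericyte markers, numbered only 10, 14, 56 and 92. Border-macrophage-like cells, with all 11 of their markers (Mrc1, Pf4 and Lyve1 among them), numbered 38, 65, 24 and 41. Microglia-like cells numbered 692, 1484, 1817 and 2460. Cells had been stained for CD31 and CD45, markers of endothelium and of leukocytes, and which stained fractions were collected is not given in the sources used here.

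Start regions of 3 members set the DNA ahead of Lama5 and Hspg2, which like the other members but Lamb1 were counted in endothelial-like cells of every library, beside that of Lamb1, with 0 to 5 UMIs. They are the bases before the first annotated exon within 250 bases of the start, from RefSeq (GRCm38.p6), which held such a region for 7 of the 10 members. Lama5 is on the minus strand at chr2:180225860-180226109, Hspg2 on the plus strand at chr4:137468553-137468768 and Lamb1 on the plus strand at chr12:31265043-31265233. Capitals mark the GC box, searched as GGGCGG and its reverse complement CCGCCC:
Lama5: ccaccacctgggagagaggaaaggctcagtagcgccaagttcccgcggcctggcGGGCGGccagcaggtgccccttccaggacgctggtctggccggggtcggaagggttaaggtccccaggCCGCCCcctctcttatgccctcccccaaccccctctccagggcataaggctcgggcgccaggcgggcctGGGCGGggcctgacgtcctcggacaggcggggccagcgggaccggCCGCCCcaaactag
Hspg2: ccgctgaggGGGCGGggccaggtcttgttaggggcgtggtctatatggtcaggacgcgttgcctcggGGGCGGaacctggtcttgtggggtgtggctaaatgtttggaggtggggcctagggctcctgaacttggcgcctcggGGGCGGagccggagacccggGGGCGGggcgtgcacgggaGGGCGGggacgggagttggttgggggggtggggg
Lamb1: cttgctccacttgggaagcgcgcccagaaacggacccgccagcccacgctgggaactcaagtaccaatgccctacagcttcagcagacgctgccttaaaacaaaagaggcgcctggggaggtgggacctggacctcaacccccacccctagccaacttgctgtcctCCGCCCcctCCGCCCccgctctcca

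Lama5 had 4 matches in 250 bases, Hspg2 had 5 in 216 and Lamb1 had 2 in 191. A match was present in 32.7%, 27.9% and 23.1% of the same stretch of all 32851 start regions in the table, so the GC box was in all 3 but is not rare. The string CCGGAA, or TTCCGG on the other strand, a longer form of the GGAA core that ETS factors bind, was not in any of the 3 windows. It was present in 12.03%, 9.21% and 7.48% of the same stretch of all start regions, so its absence is common. The shorter GGAA can be read in all 3 sequences, so the search does not show that ETS sites are lacking. Both genes counted in endothelium and the one barely counted thus share the GC box, and nothing about their levels follows from it.

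In endothelial-like cells, 9 of the 10 members reached the 50 UMIs over 2 libraries needed for a ratio. Their summed level, Lamb1 included, was 1883, 1843, 1838 and 1803 CPM, nearly the same in the 4 libraries. Sparc alone made up 742, 775, 897 and 862 CPM of these sums. The near constancy of the sum therefore does not describe the other members, which were lower in the antibody libraries where Sparc was higher, Lamb1 aside. A gene was called past the fold at a log2 ratio of at least 0.5 either way. Stroke over sham put 0 of 9 members past it in either direction, where 3.75% of 8901 genes were past it as higher and 4.89% as lower. Anti-VCAM1 over stroke isotype put 0 of 9 past it, beside 3.52% of 10503 genes higher and 9.3% lower. Anti-VLA4 over stroke isotype put 0 higher and 1 lower, Lama4, beside 3.96% of 10889 genes higher and 11% lower. Anti-VLA4 over anti-VCAM1 put 0 of 9 past it, beside 0.852% of 11380 genes higher and 0.703% lower. Scaling by median-of-ratios factors in place of total counts shifted the split over all genes to 4.55% higher and 3.89% lower for stroke, 5.30% and 7.09% for anti-VCAM1 and 5.96% and 8.18% for anti-VLA4, and left the members' counts as they were.

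One member of 9 past the fold is close to the 11% of all genes. The medians of the members were -0.14, -0.22, -0.18 and 0.02 on the log2 scale in these comparisons, beside medians over all genes of -0.04, -0.05, -0.07 and 0.00. In each of the first 3 comparisons 8 of 9 members lay below 0 and Sparc above it. With the trend over gene span subtracted, the members' medians were 0.00, -0.05 and 0.07 in those comparisons, so their common direction depended on that trend; members span 28.7 to 145 kb. Both antibody comparisons share the stroke isotype library, so their values are given side by side only.

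**Figure D1:**
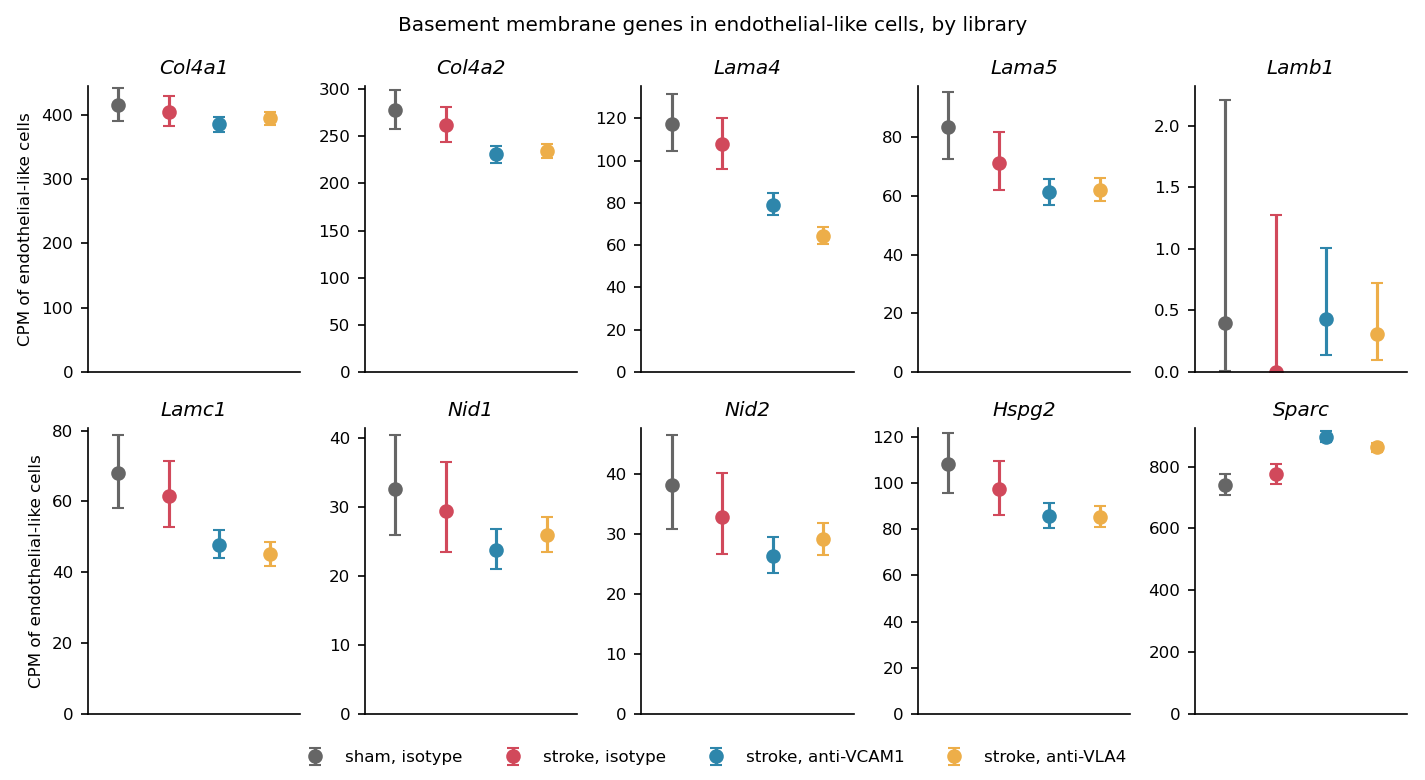
Level of each gene in endothelial-like cells (CPM, linear axis from 0, scale differs by gene) in each of the 4 libraries; bars are exact 95% Poisson intervals. Lama4 is at 118 CPM in sham and 64.4 CPM under anti-VLA4, Sparc is higher in both antibody libraries, and Lamb1 stays below 0.5 CPM.

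Col4a1 and Col4a2 start head to head on chromosome 8, with 5′ ends that overlap by 22 bases in GENCODE M21. Col4a1 stood at 416, 405, 385 and 395 CPM in endothelial-like cells, and its intervals over stroke isotype included 0 for both antibodies, at -0.07 (-0.17 to 0.02) and -0.04 (-0.13 to 0.05). Col4a2 stood at 278, 262, 231 and 234 CPM, so both antibody libraries were below both isotype libraries. Against stroke isotype the log2 ratio was -0.18 (-0.30 to -0.06) in the anti-VCAM1 library and -0.16 (-0.27 to -0.05) in the anti-VLA4 library; subtracting the trend of the ratio with gene span over all genes turned these to 0.13 and 0.19.

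Of the UMIs of this chain pair, Col4a1 took 59.9%, 60.7%, 62.5% and 62.8% in endothelial-like cells. The share in sham (57.6 to 62.2) overlapped those of stroke isotype (58.5 to 62.9) and of both antibody libraries (61.4 to 63.7 and 61.8 to 63.7). In mural-like cells the Col4a1 share was 66.1% (60.4 to 71.5) under anti-VCAM1 and 66.7% (62.2 to 71.1) under anti-VLA4.

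Lama4, the laminin alpha chain found all along endothelial basement membrane, was the 1 member past the fold in endothelial-like cells. It stood at 118 CPM (105 to 132) in sham, 108 (96.1 to 120) in stroke isotype, 79.2 (74.2 to 84.5) under anti-VCAM1 and 64.4 (60.5 to 68.4) under anti-VLA4. The isotype libraries overlapped in their intervals, and the 2 antibody libraries lay below them and apart from each other. Over stroke isotype its log2 ratio was -0.73 (-0.93 to -0.56) under anti-VLA4 and -0.44 (-0.63 to -0.25) under anti-VCAM1. Anti-VLA4 over anti-VCAM1 gave -0.30 (-0.43 to -0.17), and stroke over sham gave -0.13 (-0.36 to 0.11).

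After each cell was thinned to 1000 UMIs, so that depth no longer differed, 10.5%, 11.1%, 7.21% and 5.96% of endothelial-like cells held a Lama4 UMI, against 22.2% to 31.7% without thinning. Both antibody libraries were again below both isotype libraries. In T cells, which should lack the gene, 0, 3, 1 and 1 UMIs were counted, at median depths of 3859 to 5726 UMIs per cell beside 3814 to 4412.5 in endothelium.

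The endothelial clusters, found without the members, differed in Lama4 and in their share of each library. Mean Lama4 over libraries was 169 CPM in cluster 16, the venous cluster led by Il1r1, Vwf and Nr2f2, and 152 CPM in cluster 8, led by genes such as Adgrl3 and Hmcn1. It was 43.5 CPM in cluster 1, where Malat1, a nuclear RNA, averaged 4906 CPM beside 18173 to 28284 in the other clusters but cluster 18 (1415), and 51.5 CPM in cluster 7, the arterial cluster with Gkn3 and Bmx. Cluster 8 made up 29.5%, 22.3%, 11.5% and 10.9% of endothelial-like cells, and cluster 1 made up 4.19%, 7.57%, 22.1% and 23.6%. Cluster 16 made up 9.29%, 6.80%, 2.46% and 2.11%, and cluster 7 made up 11.1%, 12.4%, 16.4% and 17.6%. Clusters 16 and 8, the richest in Lama4, were thus scarcer in the antibody libraries, and the poorer clusters 1 and 7 commoner. Cluster 18, the lowest in Lama4, made up 2.73%, 3.55%, 3.26% and 2.50%, with no such rise.

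With the cluster mix held fixed, Lama4 was -0.44 for anti-VLA4 and -0.18 for anti-VCAM1 over stroke isotype. It was then no longer past the fold for anti-VLA4. Within clusters, Lama4 under anti-VLA4 was below stroke isotype in 5 of the 6 clusters with at least 50 UMIs. Cluster 0 gave -0.78 (-1.21 to -0.35), from 61.6 against 106 CPM, and cluster 8 gave -0.53 (-0.85 to -0.21), from 122 against 176 CPM. The intervals included 0 in cluster 1, at -0.48 (-1.47 to 0.69), and in cluster 3, at -0.40 (-0.80 to 0.01). In cluster 16 the levels overlapped, at 160 (123 to 205) against 188 (131 to 261) CPM. Cluster 7 gave 0.16 (-0.61 to 1.04), from 43.5 against 38.9 CPM. Subtracting the span trend gave -0.38 for anti-VLA4, also within the fold; Lama4 spans 145 kb, and whether intronic reads, which weigh most in long genes, were counted is not given in the sources used here. The part of span and of cluster mix in the difference was not tested beyond these values.

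**Figure D2:**
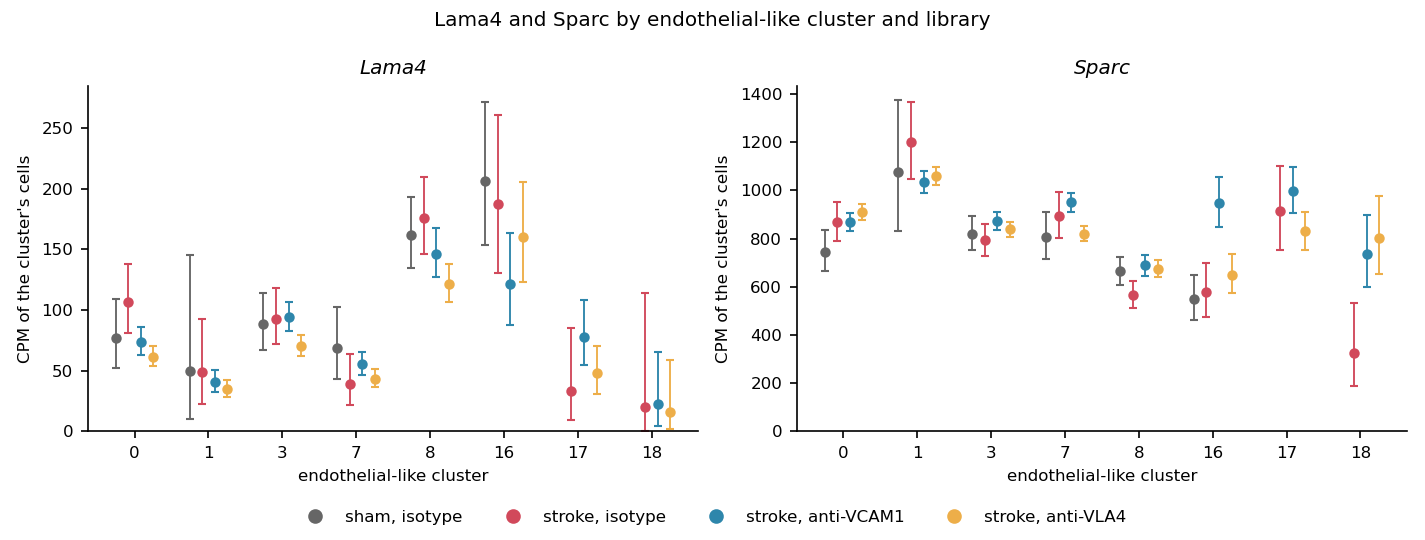
Lama4 (left) and Sparc (right) in each endothelial-like cluster (x axis) and library (colour), in CPM of the cluster's cells with exact 95% Poisson intervals; libraries with under 20 cells of a cluster are left out. Mean Lama4 runs from 19.7 CPM in cluster 18 to 169 CPM in cluster 16, and mean Sparc is highest in cluster 1 (1093 CPM).

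Lama5, the alpha chain laid down in patches of the endothelial sheet, stood at 83.4, 71.3, 61.2 and 62.1 CPM. Its intervals over stroke isotype reached 0 in both antibody comparisons, at -0.22 (-0.45 to 0.01) and -0.20 (-0.42 to 0.02). Of the UMIs of the 2 alpha chains, Lama4 took 58.5%, 60.2%, 56.4% and 50.9%, so the share under anti-VLA4 (48.7 to 53.1) lay below those of the isotype libraries (54.1 to 62.8 and 55.8 to 64.4). The share also differed by cluster, at 35.0% in cluster 7 and 62.1% in cluster 8 under anti-VLA4. Within each cluster the intervals of anti-VLA4 and stroke isotype overlapped, and in clusters 7 and 17 the share was higher under anti-VLA4. The part of cluster mix in the lower share was not tested beyond these values.

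Lamc1, the gamma chain shared by most laminins, stood at 67.9, 61.6, 47.8 and 45.1 CPM. Both antibody libraries were below both isotype libraries. Relative to stroke isotype they gave -0.36 (-0.61 to -0.11) in the anti-VCAM1 and -0.44 (-0.69 to -0.21) in the anti-VLA4 library, neither past the fold, and they were -0.09 and -0.16 once the span trend was subtracted (Lamc1 spans 114 kb).

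Lamb1, a laminin beta chain that pairs with Lamc1, was hardly counted in the endothelium. There were 1, 0, 5 and 5 UMIs in 549, 647, 2394 and 3084 endothelial-like cells, where 3 UMIs would be 1.19, 1.04, 0.259 and 0.185 CPM. Over all kept cells the libraries held 2, 1, 30 and 23 Lamb1 UMIs, of which mural-like cells held 1, 1, 20 and 14. No ratio was drawn from these counts. Lamb2, the other common beta chain, had 354, 323, 1166 and 1621 endothelial UMIs, at 141, 112, 101 and 100.0 CPM, so a beta chain was counted there.

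Nid1 and Nid2, the nidogens, which bridge laminin and collagen IV, were both present in endothelium. Nid1 stood at 32.6, 29.4, 23.7 and 25.9 CPM and Nid2 at 38.1, 32.9, 26.3 and 29.1 CPM. All their intervals over stroke isotype included 0. Nid1 took 46.1%, 47.2%, 47.4% and 47.1% of the UMIs of the pair, a share that was nearly constant.

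Hspg2, perlecan, a heparan sulfate proteoglycan, stood at 108, 97.3, 85.7 and 85.3 CPM. Its log2 ratios over stroke isotype were -0.18 (-0.38 to 0.01) and -0.19 (-0.38 to 0.00), so the antibody libraries lay slightly lower without leaving the counting interval, and with the span trend subtracted both ratios turned positive, at 0.084 and 0.099.

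**Figure D3:**
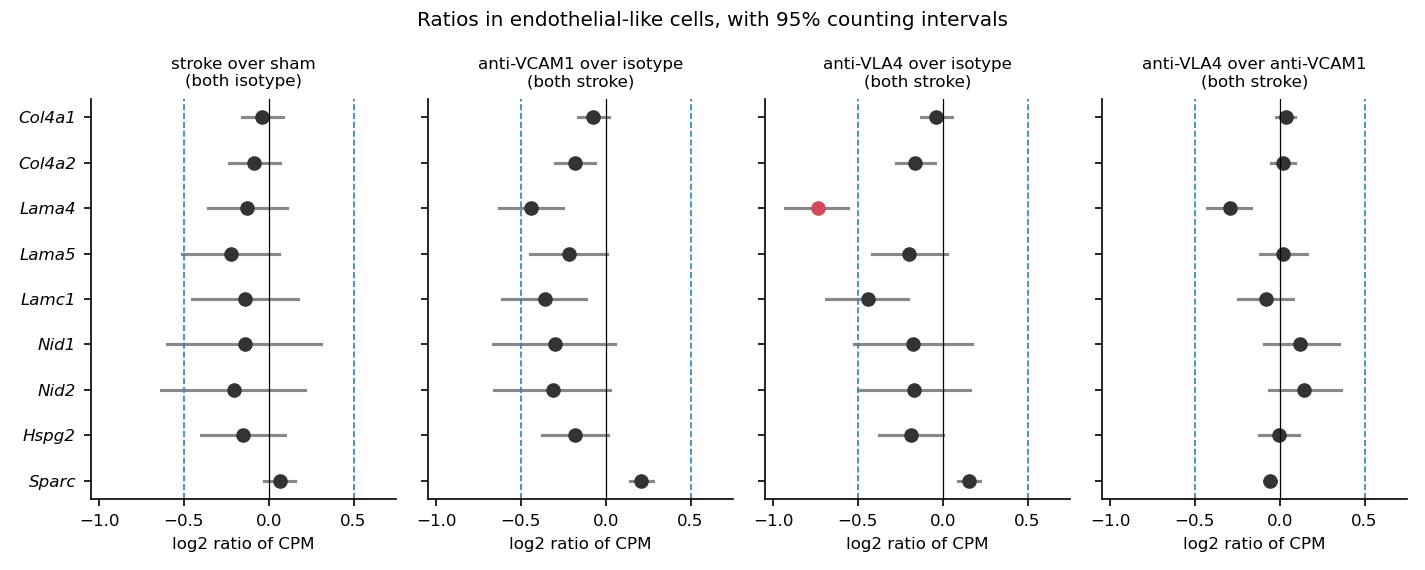
Log2 ratios (pseudocount 1 CPM) of the 9 measured members in endothelial-like cells in 4 comparisons; lines are 95% counting intervals, dashed lines the fold of 0.5, and the red point is the ratio past it. Lama4 under anti-VLA4 (-0.73) is the 1 point past the fold, and Sparc is the 1 gene right of 0 in the first 3 panels.

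Before the span trend was subtracted, Sparc went the other way from the measured structural genes in endothelial-like cells. It stood at 742 (709 to 776), 775 (744 to 808), 897 (880 to 915) and 862 (848 to 877) CPM. Both antibody libraries were above both isotype libraries. Anti-VCAM1 gave 0.21 (0.14 to 0.28) and anti-VLA4 0.15 (0.09 to 0.22) over stroke isotype on the log2 scale, inside the fold. With the cluster mix held fixed they were 0.11 and 0.035. Mean Sparc was highest in cluster 1, at 1093 CPM, the cluster that was commoner in the antibody libraries. With the span trend subtracted, Sparc was at 0.27 and 0.23, and Col4a1 at 0.19 and 0.25. Col4a2 and Hspg2 were then also above 0 under both antibodies, while Lama4, Lama5 and Lamc1 stayed below 0.

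Markers of other cells were also present in the endothelial class. The 11 microglial markers summed to 79.4, 314, 130 and 129 CPM in endothelial-like cells, and the 10 pericyte markers (8 above 0 in sham, without Notch3 and Anpep) to 129, 133, 254 and 290 CPM. Cells with at least 2 mural markers made up 3.64%, 4.48%, 7.69% and 8.14% of the class. Without those cells Lama4 was -0.75 for anti-VLA4 over stroke isotype. Fibroblast markers summed to 1.73 to 7.78 CPM. The part of microglial or pericyte RNA in the Sparc level was not tested.

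In microglia-like cells Sparc was the 1 member at a high level. It stood at 1497 (1463 to 1531), 1506 (1481 to 1531), 1526 (1502 to 1550) and 1487 (1466 to 1507) CPM, which is almost flat. Stroke over sham gave a log2 ratio of 0.01 (-0.03 to 0.05). The anti-VCAM1 library gave 0.02 (-0.01 to 0.05) and the anti-VLA4 library -0.02 (-0.05 to 0.01) over stroke isotype. Thinned to 1000 UMIs, 66.2%, 62.3%, 66.9% and 67.0% of microglia-like cells held a Sparc UMI, beside 5.56%, 4.56%, 4.63% and 4.08% of T cells. Microglia-like cells held 76.6%, 81.4%, 56.6% and 55.8% of all Sparc UMIs in kept cells, and endothelial-like cells held 18.6%, 13%, 38.2% and 39.1%. Microglia-like cells outnumbered endothelial-like cells in the isotype libraries and not in the antibody libraries, so these shares also carry the cell numbers.

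Microglial clusters, also found without Sparc, differed in it far more than libraries did. The mean over libraries was 2226 CPM in cluster 12, led by Cst3, Crybb1 and Tyrobp, and 2119 CPM in cluster 10, led by Socs3, Crybb1 and Cst3. It was 957 CPM in cluster 14, led by Fabp5, Cst7 and Apoe, genes of the disease-associated microglial state. It was 633 CPM in cluster 5 and 496 CPM in cluster 13, led mostly by unnamed transcripts, whose Malat1 was 55024 and 58930 CPM, the highest of the 8 clusters. In cluster 14 the 3 libraries with at least 20 cells gave 845, 1036 and 990 CPM.

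**Figure D4:**
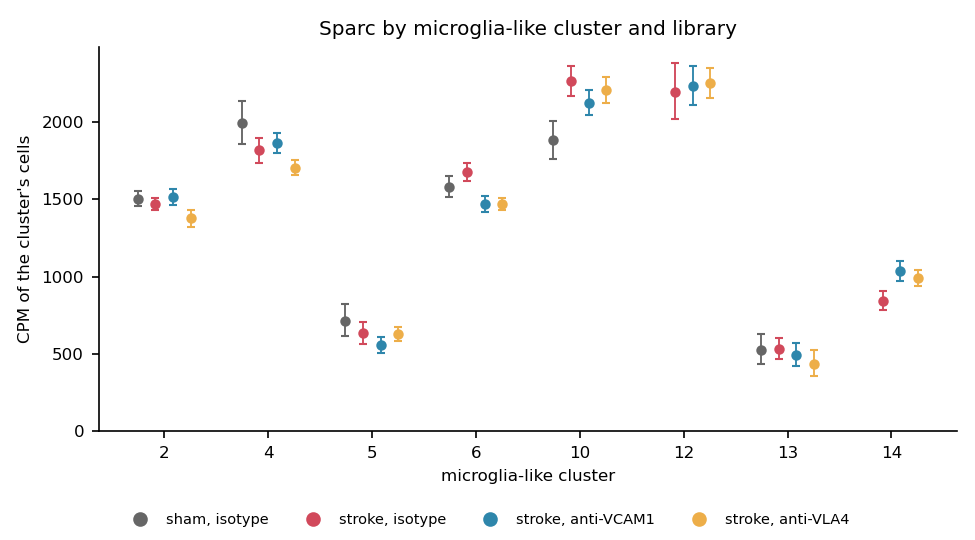
Sparc in each microglia-like cluster (x axis) and library (colour), in CPM of the cluster's cells with exact 95% Poisson intervals; libraries with under 20 cells of a cluster are left out. Cluster means run from 496 to 2226 CPM, and libraries differed less within a cluster, as in cluster 5, where sham was at 713 CPM and anti-VCAM1 at 557 CPM.

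Other members were scarce in microglia-like cells. Lamc1 stood at 12.3, 11.2, 11.5 and 12.8 CPM, and T cells held 14.0, 41.9, 14.1 and 33.4 CPM, from 8, 52, 8 and 29 UMIs. The intervals overlapped in sham and under anti-VCAM1, and microglial Lamc1 lay below that of T cells in stroke isotype and under anti-VLA4. Nid2 stood at 11.1, 8.27, 10.0 and 6.72 CPM in microglia-like cells and 7.01, 0.805, 0 and 2.31 CPM in T cells, with 57 to 101 UMIs per library, while Nid1 had 0 or 1. Lamc1, Nid2 and Sparc were the 3 members with enough UMIs for a ratio in microglia-like cells. Stroke over sham put 0 of 3 past the fold, beside 2.98% of 10682 genes higher and 2.86% lower. Anti-VCAM1 over stroke isotype also put 0 past it, beside 2.12% of 11177 genes higher and 1.67% lower, as did anti-VLA4 over stroke isotype, beside 2.52% of 11397 genes higher and 2.83% lower. Anti-VLA4 over anti-VCAM1 put 0 higher and 1 lower, Nid2 at -0.51 (-1.0 to -0.15), beside 1.19% of 11507 genes higher and 1.66% lower. The 3′ part of Nid2 overlaps Rtraf, on the opposite strand, by 437 bases, and whether the counting used strand is not given in the sources used here, so the Nid2 counts are uncertain. The remaining 7 members each had 0 to 20 UMIs per library.

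Border-macrophage-like cells had few basement membrane UMIs. Col4a2, Lama4, Lama5, Lamb1 and Nid1 were at 0 in all 4 libraries, where 3 UMIs would be 8.10 to 24.4 CPM. These zeros depended on the naming. With cells named one by one from their markers Lama4 had 0, 7, 0 and 1 UMIs. At a coarser clustering Col4a2 had 1, 3, 4 and 2. Col4a1 had 1, 0, 0 and 4 UMIs, Lamc1 had 1, 2, 0 and 5, Hspg2 had 0, 0, 1 and 0, and Nid2 had 7, 7, 3 and 2. Endothelial markers in this class summed to 87.8, 59.4, 521 and 1141 CPM, highest in the library with most Col4a1 and Lamc1 UMIs, and their part in those UMIs was not tested. Sparc had 58, 171, 50 and 7 UMIs, at 268, 462, 407 and 41.4 CPM, so that anti-VLA4 stood far below the others.

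That Sparc difference rested on a few cells. Over the libraries, 14 of 168 border-macrophage-like cells held at least 5 Sparc UMIs, and together they held 271 of the 286; there were 2, 9, 3 and 0 such cells by library. In those 14 cells microglial markers summed to 10187 CPM and the median depth was 14685 UMIs. In the 144 cells with no Sparc UMI the microglial markers summed to 2999 CPM and the median depth was 3869.5 UMIs. The same held in T cells, where the 25 cells with at least 5 Sparc UMIs had 10765 CPM of microglial markers, beside 169 CPM in the 578 with none. The 10 border-macrophage-like cells with 1 to 4 Sparc UMIs had 2684 CPM of microglial markers. With cells named one by one from their markers instead of by cluster, Sparc in the class stood at 191, 331, 262 and 147 CPM, and at a coarser clustering at 156, 210, 152 and 81.0 CPM, so anti-VLA4 stayed lowest by a smaller margin.

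Mural-like cells held the highest Lamc1 and Nid1 levels of the classes described. Lamc1 stood at 1150 (810 to 1586), 506 (360 to 692), 271 (223 to 326) and 212 (178 to 251) CPM. Nid1 stood at 404, 350, 122 and 166 CPM. Both were lower in the antibody libraries than in the isotype libraries, but these had 10 and 14 mural-like cells, and 37 and 39 Lamc1 UMIs. Ratios needed 20 cells in both libraries, so no ratio to stroke isotype was taken. The levels depended on the naming. With cells named one by one from their markers, Lamc1 stood at 805, 332, 157 and 127 CPM. Nid1 then stood at 276, 239, 74.5 and 98.8 CPM. At a coarser clustering no cluster was named mural.

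The mural-like class also held endothelial RNA, in unequal amounts. The 13 endothelial markers summed to 1710, 8502, 11956 and 12011 CPM in it, and the 10 pericyte markers to 27204, 22261, 16824 and 19676 CPM. The part of endothelial RNA in the lower Lamc1 and Nid1 levels was not tested. Lama4 stood at 373, 130, 144 and 131 CPM, Col4a1 at 529, 584, 463 and 470 CPM, and Sparc at 808, 779, 1064 and 932 CPM. Nid1 took 86.4% (75.0 to 94.0) and 86.1% (78.6 to 91.7) of the nidogen UMIs under anti-VCAM1 and anti-VLA4, against 47.4% and 47.1% in endothelium. Lama4 took 81.1% (70.3 to 89.3) and 76.9% (67.8 to 84.4) of the alpha-chain UMIs in mural-like cells, and 56.4% and 50.9% in endothelium. With cells named one by one from their markers, mural-like cells of these libraries held 66 and 146 Nid1 UMIs, beside 19 and 42 of Nid2. Lama4 then had 91 and 151 UMIs, beside 29 and 71 of Lama5.

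Anti-VLA4 over anti-VCAM1 was the 1 ratio allowed in mural-like cells. Lamc1 gave -0.35 (-0.73 to 0.02), Nid1 gave 0.44 (-0.05 to 0.95) and Sparc gave -0.19 (-0.37 to -0.01). The 2 libraries differed in smooth muscle markers. The 8 markers summed to 3888 CPM in mural-like cells under anti-VCAM1 and 1315 CPM under anti-VLA4. Their part in these ratios was not tested.

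**Figure D5:**
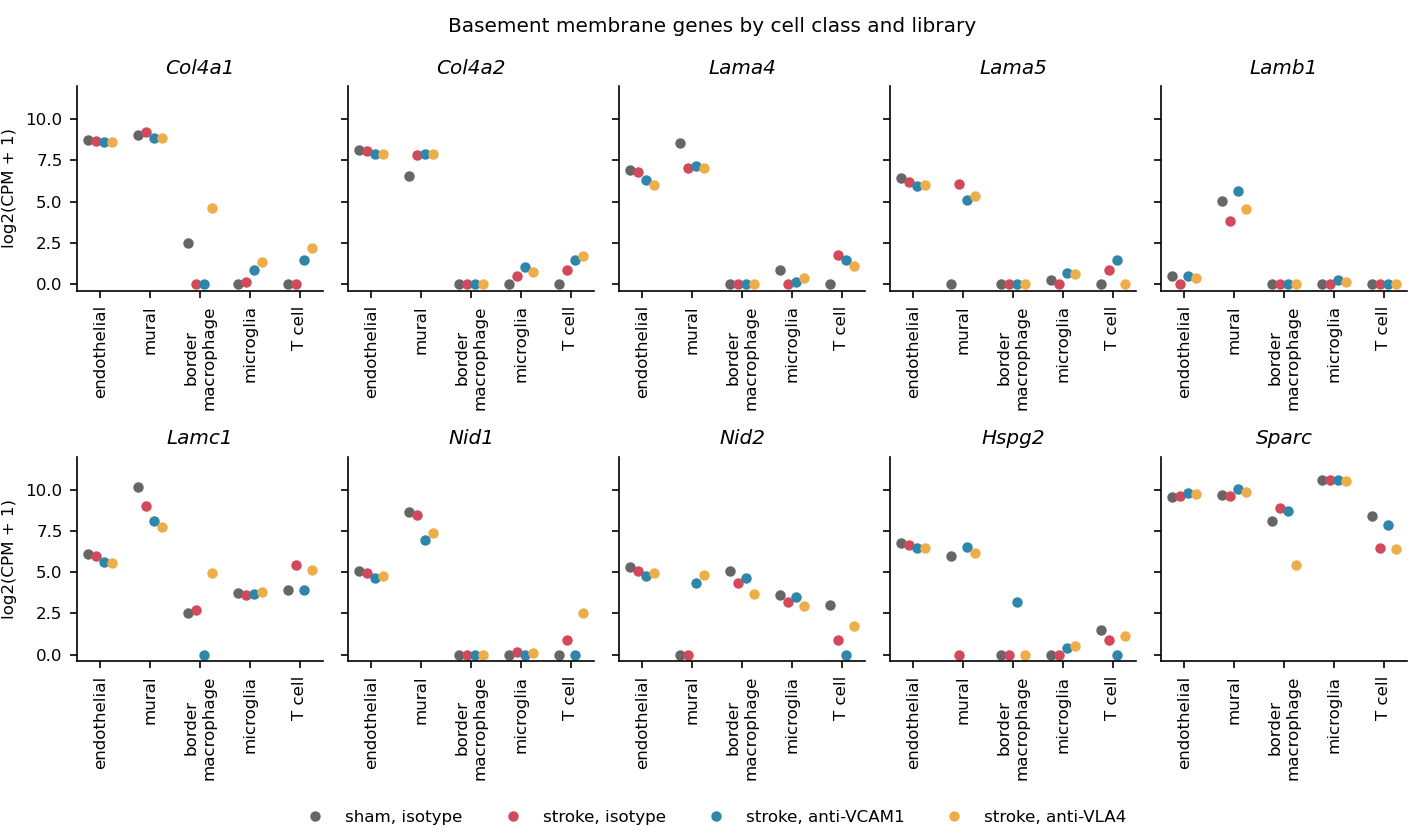
Level of each gene as log2(CPM + 1) in 5 cell classes (x axis) and 4 libraries (colour), with no error drawn; the mural points of sham and stroke isotype rest on 10 and 14 cells. Col4a2, Lama4 and Lama5 are highest in endothelial-like or mural-like cells, Lamb1 lies above 1 in mural-like cells alone of the 5 classes drawn, and Sparc is highest in microglia-like cells.

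Over 27 combinations of class and library with at least 20 cells, the genes closest to Col4a1 in log2(CPM + 1) were Apcdd1, Synm, Bok, Ehd2 and Nova2, with Pearson r of 0.98, 0.98, 0.98, 0.97 and 0.97. Closest to Sparc were Ecscr, Adgrg1, Csnk1e, Sgk1 and Klf12, with r of 0.87, 0.86, 0.85, 0.85 and 0.85. Among the members, Col4a1 had r of 0.90 with Hspg2, 0.89 with Col4a2 and 0.24 with Sparc. Points share libraries and depth and are not independent, so these values only describe likeness.

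Other genes of the matrix were read from 5 lists in endothelial-like cells. Beside their counts stand the shares of all genes past the fold, 3.75% higher and 4.89% lower for stroke over sham, 3.52% and 9.3% for anti-VCAM1 and 3.96% and 11% for anti-VLA4. Of 22 other basement membrane components, 9 were measured for stroke over sham and 0 were past the fold. Their median was -0.26 beside -0.04 over all genes, and Tinagl1, a secreted matrix glycoprotein, stood at 214 CPM in stroke isotype and 272 in sham. For anti-VCAM1 over stroke isotype 11 were measured and 1 was higher, Tinagl1 at 0.61 (0.49 to 0.74), from 328 against 214 CPM. For anti-VLA4, 12 were measured; Col18a1, the collagen that gives endostatin, was higher at 0.61 (-0.16 to 1.79, from 103 and 11 UMIs), as was Tinagl1 at 0.51 (0.39 to 0.63), while Egflam, at -0.77 (-1.23 to -0.39), and Col4a3, at -0.92 (-2.09 to -0.21), were lower. Agrn, the heparan sulfate proteoglycan agrin, gave -0.44 (-0.61 to -0.27) under anti-VCAM1, within the fold.

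Of 18 matrix receptors, 4 of 11 measured were lower and 0 higher under anti-VCAM1, and 4 of 12 lower and 0 higher under anti-VLA4, beside 9.3% and 11% of all genes lower. Itgb5, an integrin beta chain, stood at 22.2 CPM in stroke isotype, 10.4 under anti-VCAM1 and 11.7 under anti-VLA4. Its ratios were -1.03 (-1.55 to -0.64) and -0.87 (-1.34 to -0.49). Itgav, its alpha partner, gave -0.80 (-1.12 to -0.51) and -0.76 (-1.07 to -0.49), and Itga3, a laminin receptor chain, gave -0.95 (-1.58 to -0.48) and -0.75 (-1.32 to -0.30). Itga5, the fibronectin receptor chain, gave -0.77 (-1.27 to -0.36) and -0.60 (-1.06 to -0.20); it and Tinagl1 under anti-VLA4 lie outside the naming rule and were added after their values were seen. For stroke over sham Itgb5 was higher, at 1.08 (0.47 to 1.89), from 22.2 against 9.93 CPM. The microglial markers in the class were also highest in stroke isotype, at 314 CPM, and their part in these ratios was not tested.

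Of 15 genes of collagen processing, 11 or 12 were measured. P4ha2, a prolyl hydroxylase subunit, was lower for stroke over sham at -0.50 (-0.94 to -0.10). Serpinh1, the collagen chaperone HSP47, gave 0.42 (0.26 to 0.59) under anti-VCAM1 and 0.52 (0.36 to 0.68) under anti-VLA4, from 126 CPM in stroke isotype to 169 and 180 CPM, and past the fold in the second only. Of 18 genes of matrix turnover, 9 were measured in each comparison. Adamts1, a secreted protease, was lower for stroke over sham, at 125 against 196 CPM and -0.65 (-0.85 to -0.45), and Timp2, a protease inhibitor, higher, at 0.94 (0.26 to 1.84). Under anti-VCAM1 Timp2 was lower, at -0.53 (-1.047 to -0.061). Timp2 had 21 UMIs in sham, 49 in stroke isotype and 133 under anti-VCAM1. The microglial markers of the class stood at 79.4, 314 and 130 CPM in these libraries, and their part in the Timp2 ratios was not tested. Adamts9 was lower under anti-VLA4 at -0.55 (-0.87 to -0.26).

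Of 12 matricellular genes, 4 were measured. Ccn1 and Ccn2, which bind integrins and are targets of YAP signalling, stood lower in the stroke isotype library than in the other 3. Ccn1 was at 60.8, 27.0, 53.0 and 47.4 CPM and Ccn2 at 49.6, 34.3, 53.0 and 56.6 CPM. Stroke over sham gave -1.14 (-1.58 to -0.77) and -0.52 (-0.93 to -0.14). Anti-VCAM1 gave 0.95 (0.63 to 1.33) and 0.61 (0.32 to 0.95), and anti-VLA4 gave 0.79 (0.47 to 1.17) and 0.71 (0.42 to 1.04). All 3 comparisons use the stroke isotype library. Anti-VLA4 over anti-VCAM1, which does not, put 2 receptors higher, Itgb4 at 0.65 (0.12 to 1.96) and Ddr1 at 0.69 (0.25 to 1.61), and 1 turnover gene lower, Mmp25 at -0.51 (-0.90 to -0.21), of 50 list genes measured, beside 0.852% of all genes higher and 0.703% lower.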

How the data were processed

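UMI counts per gene and cell barcode were used as deposited. Per the file headers the counts come from Cell Ranger 7.0.1, while the submitters' processing notes name Cell Ranger 6.0.0 and Seurat 4.3.0.1 and the builds mm10 and GRCh38 with no role. Counting options, the use of intronic reads and of strand among them, are not given in the sources used here. Deposited totals were 10008987 to 34721356 UMIs per library.

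Kept barcodes had 500 UMIs or more, 200 genes or more and no more than 10% of UMIs from mitochondrial genes, and 12, 25, 60 and 125 cells that Scrublet marked as doublets were left out. The libraries were clustered together with scanpy 1.11.5 and leidenalg 0.10.2 (2000 variable genes, 30 components, resolution 1) without 217 genes, the members, list genes and markers among them. A cluster was named from at least 3 detected markers of a fixed list; how the markers were scored was settled after clusters were seen. A cluster with endothelial and mural markers (284 cells) and an MHC class II cluster (450 cells) stayed unnamed. Counts were summed per class and library, with exact Poisson intervals for levels, exact Clopper-Pearson intervals for shares and conditional binomial intervals for ratios (95%, counting error only). Ratios used a pseudocount of 1 CPM, at least 20 cells in both libraries and, to be called, at least 50 UMIs over both. No test across groups was possible with 1 library each. The ratio script was tested on simulated counts. Python 3.11.15, numpy 2.4.6, scipy 1.17.1 and pandas 2.3.3 were used.

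Genes named are all 10 members, Sparc in microglia-like cells, up to 3 measured genes of each list with the largest absolute ratio in a comparison, and the 5 genes closest to Col4a1 and to Sparc; Lamb2 in the antibody libraries, Itga5 under both antibodies and Tinagl1 under anti-VLA4 were added after their values were seen. The members and lists were chosen with earlier results of these data known. Gene spans came from GENCODE M21 (GRCm38) and were matched for 32158 of 32285 genes. Alternatives covered scaling, cell filter, doublets, resolution, naming, thinning, cluster mix, gene span, pseudocount, count minimum and leaving out clusters.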

Additional observations from a re-analysis of the deposited data

How the results depend on the processing

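No paired analysis was possible because each group has 1 library. The count of members lower under anti-VLA4 in endothelial-like cells (1) was 2 with cells named on their own markers or thinned to 1000 UMIs, and 0 with the cluster mix held fixed or the gene span trend removed. For anti-VCAM1 (0 either way) thinning gave 2 lower, leaving out cluster 3 gave 1 lower, and no count minimum gave 1 higher, Lamb1, on 5 and 0 UMIs. Lama4 under anti-VLA4 was past the fold in 21 of 23 alternatives, between -0.87 (thinned) and -0.38 (span trend removed). Of list genes, median-of-ratios scaling gave 2 lower for stroke (4 as reported) and 2 lower for anti-VLA4 over anti-VCAM1 (1 as reported), and removing the span trend gave 2 higher for anti-VLA4 (5 as reported). Microglial Sparc under anti-VCAM1 was -0.0193 with median-of-ratios scaling, 0.0817 thinned and -0.0296 with the mix fixed. Under anti-VLA4 it was -0.0804, 0.0601 and -0.0841 in the same settings and -0.0757 without the span trend. The cause of these shifts was not tested. Leaving out barcodes shared between libraries or adding the mixed endothelial and mural cluster, both chosen after seeing the data, changed no count of members. Depth limits Lamb1 in endothelium and all mural values of the isotype libraries.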
